A study of Homo sapiens with 6 samples.

Results

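MEIS2 and TCF4 peaks of SK-N-BE(2) cells were compared, with each MEIS2 library kept apart. All peaks on chromosomes 1 to 22 and X were taken, which gave 9595 peaks for MEIS2 replicate 1, 13871 for MEIS2 replicate 2 and 30704 for TCF4. These are 54170 of the 118064 peaks in the 5 lists of the study. The other lists are those of HAND2 replicates 1 and 2 (30410 and 33484 peaks), which were used to ask how much of the overlap between MEIS2 and TCF4 lies away from HAND2.

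SK-N-BE(2) is an established human neuroblastoma line with amplified MYCN, and all libraries came from it. The labels name no treatment, time point or genetic change, and the groups differ in them by the antibody. Libraries were made by CUT&Tag: an antibody brings a transposase to a bound protein, and the DNA around it is cut and tagged. There were 2 libraries for MEIS2, 2 for HAND2 and only 1 for TCF4, whose values can be set against no replicate. Nothing in the labels says that the replicates came from separate cultures. A library made with IgG, an antibody with no target in the cell, has no peak list here. It was taken as the source of the local background of each peak. This was inferred, because the options of the peak calling are not given.

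TCF4 is an E protein, a basic helix-loop-helix (bHLH) factor that binds the E-box CANNTG as a dimer with itself or with tissue-restricted bHLH factors such as HAND2. MEIS2 is a homeodomain factor of the TALE class, which binds TGACAG and related letters and often acts beside PBX proteins. MEIS2 and HAND2 are both counted among the regulators of the adrenergic state of neuroblastoma, the state that resembles sympathetic neurons. TCF4 in this text is the E protein encoded on chromosome 18, and not the Wnt effector TCF7L2, which has been called by the same name.

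The MEIS2 lists did not resemble each other closely. Of the replicate 1 peaks 24.6% overlapped a replicate 2 peak, and of the replicate 2 peaks 16.8% overlapped a replicate 1 peak. The identifiers of all 13871 replicate 2 peaks carry the word Flag and those of replicate 1 do not, although the labels name the same MEIS2 antibody for both. What the word stands for is not given in the labels, so whether replicate 2 was made like replicate 1, with the same antibody and unmodified cells, is not known, and this holds for every replicate 2 value. Both lists were shallow. The median fragment pile-up at a summit, the base of highest signal in a peak, was 22 and 13 for MEIS2 replicates 1 and 2 against 60 for TCF4 and 34 and 41 for HAND2. The local background corresponded to a median of 10.7 IgG fragments at the summits of replicate 1, 2.08 in replicate 2 and 14.0 in TCF4. In replicate 2, 57.7% of the peaks stood at the lowest background that the list holds, against 10.5% in replicate 1.

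The promoters of 6 genes show what lay under shared peaks of MEIS2 replicate 1 and TCF4. RALGPS1 (an exchange factor for Ral GTPases) and MAML1 (a Notch coactivator) are shown as the promoters that lay wholly under both peaks at the strongest sites without a HAND2 peak. TCF3 encodes another E protein, ID2 an inhibitor of E proteins, and HAND2 and ISL1 encode regulators of sympathetic neurons. Each stretch runs from 250 bases before to 50 bases after the annotated start, 5′ to 3′ on the gene's strand, from RefSeq on GRCh38.p14. All 300 bases of each lay under both a MEIS2 replicate 1 and a TCF4 peak. The windows are chr9:126914532-126914831 (plus strand) for RALGPS1, chr5:179732572-179732871 (plus) for MAML1, chr19:1652566-1652865 (minus) for TCF3, chr4:173530180-173530479 (minus) for HAND2, chr5:51383198-51383497 (plus) for ISL1 and chr2:8681806-8682105 (plus) for ID2. Capitals mark E-boxes (CANNTG) and TGACAG or its reverse complement CTGTCA.
RALGPS1: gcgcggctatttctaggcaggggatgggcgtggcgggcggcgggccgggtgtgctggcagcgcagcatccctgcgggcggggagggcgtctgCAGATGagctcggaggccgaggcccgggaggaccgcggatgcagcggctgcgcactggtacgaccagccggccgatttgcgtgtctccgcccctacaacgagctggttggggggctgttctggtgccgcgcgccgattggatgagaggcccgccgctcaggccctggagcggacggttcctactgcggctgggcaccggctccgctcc
MAML1: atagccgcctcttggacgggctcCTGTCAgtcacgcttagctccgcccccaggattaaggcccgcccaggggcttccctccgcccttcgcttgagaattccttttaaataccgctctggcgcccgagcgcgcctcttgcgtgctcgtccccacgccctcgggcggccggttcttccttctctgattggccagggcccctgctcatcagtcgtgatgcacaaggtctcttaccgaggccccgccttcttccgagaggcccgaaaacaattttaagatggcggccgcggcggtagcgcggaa
TCF3: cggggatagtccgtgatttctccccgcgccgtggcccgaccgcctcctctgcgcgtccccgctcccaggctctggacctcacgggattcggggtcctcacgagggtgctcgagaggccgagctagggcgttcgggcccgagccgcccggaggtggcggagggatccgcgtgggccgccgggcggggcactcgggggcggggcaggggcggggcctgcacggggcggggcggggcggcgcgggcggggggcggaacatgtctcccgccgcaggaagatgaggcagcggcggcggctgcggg
HAND2: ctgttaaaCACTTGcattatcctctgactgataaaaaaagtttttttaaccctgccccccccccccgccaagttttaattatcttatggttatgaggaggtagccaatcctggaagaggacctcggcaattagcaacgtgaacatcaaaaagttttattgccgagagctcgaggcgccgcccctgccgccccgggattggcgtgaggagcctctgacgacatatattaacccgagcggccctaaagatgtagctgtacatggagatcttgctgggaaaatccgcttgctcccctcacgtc
ISL1: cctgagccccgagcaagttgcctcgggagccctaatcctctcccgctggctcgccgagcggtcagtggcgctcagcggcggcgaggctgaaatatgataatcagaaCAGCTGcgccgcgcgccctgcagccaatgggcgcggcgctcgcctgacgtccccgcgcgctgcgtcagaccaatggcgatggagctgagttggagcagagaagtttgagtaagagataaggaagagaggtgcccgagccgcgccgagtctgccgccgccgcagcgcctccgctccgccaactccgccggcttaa
ID2: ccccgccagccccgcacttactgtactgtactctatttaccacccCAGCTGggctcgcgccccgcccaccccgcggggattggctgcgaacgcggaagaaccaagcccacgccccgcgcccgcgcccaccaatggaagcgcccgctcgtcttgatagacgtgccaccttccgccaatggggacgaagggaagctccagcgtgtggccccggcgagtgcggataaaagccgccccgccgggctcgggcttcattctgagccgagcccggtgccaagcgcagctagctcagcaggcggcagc

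The RALGPS1, HAND2, ISL1 and ID2 stretches hold 1 E-box each, and the MAML1 stretch holds TGACAG on the opposite strand with no E-box. The TCF3 stretch, of 78.3% G and C, holds neither, although its MEIS2 peak was among the strongest of the list. A match of letters is a description and not a binding site, and no match says only that the letters are not in this window. The HAND2 stretch lay also wholly under a MEIS2 replicate 2 peak, which none of the other 5 did.

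The first question was how often a MEIS2 peak meets a TCF4 peak. MEIS2 replicate 1 met TCF4 at most of its sites and replicate 2 at few. Of the replicate 1 peaks, 6387 of 9595 overlapped a TCF4 peak by at least 1 bp, which is 66.6% (exact 95% binomial interval 65.6 to 67.5%). Of the replicate 2 peaks, 1250 of 13871 did, which is 9.01% (8.54 to 9.50%). The intervals given here and below cover counting error only, and the gap between the libraries is far wider than they are. Seen from TCF4, 20.1% of its peaks (6174) overlapped MEIS2 replicate 1 and 4.14% (1270) overlapped replicate 2. Peaks are not replicates of a condition, so no test was made on these shares. With the 5000 peaks of highest −log10 p in each list in place of all peaks, the share was 35.4% for replicate 1 and 2.82% for replicate 2, and seen from TCF4 34.3% and 2.86%.

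The few sites that replicate 2 shared with TCF4 were mostly sites of replicate 1 as well. A replicate 1 peak lay on 80.6% of the replicate 2 peaks that overlapped TCF4 and on 10.5% of those that did not. From the side of replicate 1 the order was the opposite: 16.5% of its TCF4-overlapping peaks met a replicate 2 peak, against 40.8% of the others. Both MEIS2 libraries together reached 1021 TCF4 peaks, 3.33% of the list, and either of them reached 6423, or 20.9%.

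The overlap was broad where it occurred. In replicate 1 the median overlap was 643 bp and 56.5% of the overlapping MEIS2 peaks lay wholly inside the TCF4 peak. In replicate 2 the median was 460.5 bp and 22.7% lay wholly inside. Overlaps under 50 bp made up 31 and 42 peaks in replicates 1 and 2. Few peaks missed narrowly. A TCF4 peak lay within 200 bp of 55 of the 3208 replicate 1 peaks without overlap and of 94 of the 12621 in replicate 2, and 65.4% and 83.2% of these peaks were more than 10 kb from any TCF4 peak.

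HAND2 lay on most of the sites that MEIS2 and TCF4 shared. In replicate 1, 648 of the 6387 overlapping peaks had no peak of either HAND2 list, which is 10.1% (9.42 to 10.9%). For replicate 2 the count was 32 of 1250, or 2.56% (1.76 to 3.59%). Among MEIS2 peaks without TCF4 the share outside HAND2 was 20.2% in replicate 1 and 70.7% in replicate 2. These shares rest on both HAND2 lists. Without HAND2 replicate 2 the replicate 1 share was 16.9%, and for MEIS2 replicate 2 it was 5.36% without HAND2 replicate 1 and 4.32% without HAND2 replicate 2. Counting only HAND2 peaks found in both lists gave 18.1% and 6.16%, the 5000 peaks of highest −log10 p per list gave 32.5% and 5.67%, a limit of 1 kb to a HAND2 summit gave 4.40% for replicate 2, and sites away from gene starts gave 6.54% for replicate 1.

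**Figure D1:**
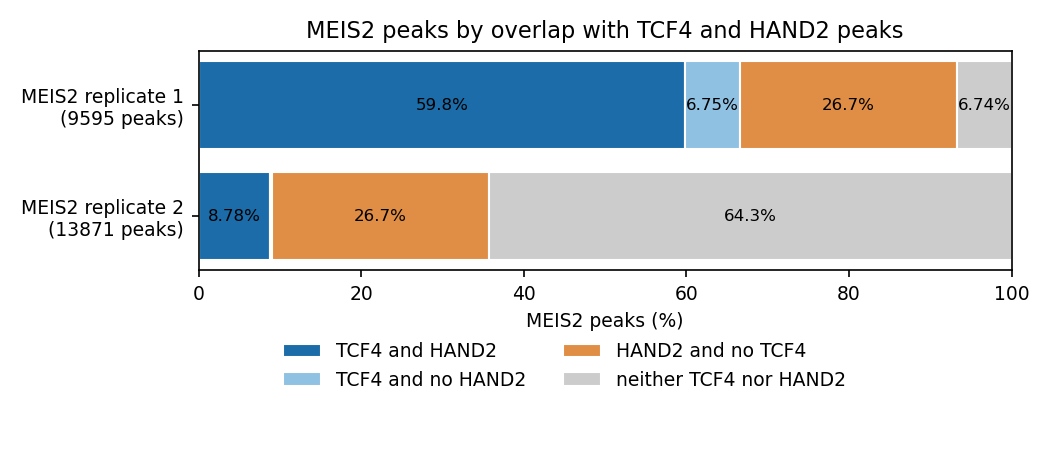
Shares of MEIS2 peaks (horizontal axis, percent) that overlapped a TCF4 peak and a HAND2 peak, TCF4 alone, HAND2 alone or neither, with 1 bar for each MEIS2 library. Replicate 1 is mostly TCF4 and HAND2 together (59.8%), replicate 2 mostly neither (64.3%), and its TCF4 class without HAND2 (0.231%) is too thin to see.

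The libraries differed most in the peaks with neither factor. Peaks with TCF4 and HAND2 together numbered 5739 in replicate 1 and 1218 in replicate 2. Those with HAND2 and no TCF4 were the same share of both lists, 26.7%. Peaks with neither made up 6.74% of replicate 1 (647 peaks) and 64.3% of replicate 2 (8918 peaks). The plot of shares by class shows this, with TCF4 outside HAND2 at 6.75% of replicate 1.

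A MEIS2 peak met TCF4 more often on a HAND2 site than off it in both libraries. In replicate 1 TCF4 lay on 69.1% of the MEIS2 peaks that overlapped HAND2 and on 50.04% of those that did not. The replicate 2 shares were 24.8% and 0.358%, or 32 of 8950 peaks off HAND2. The share was highest where both HAND2 lists had a peak, at 71.5% in replicate 1 and 32.2% in replicate 2. Where only 1 of them did, it was 52.5% and 4.32%.

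TCF4 peaks sorted in the same way. HAND2 lay on 54.8% of all TCF4 peaks, on 99.1% of the 1021 with both MEIS2 libraries, on 88.7% of the 5153 with replicate 1 alone and on 92.0% of the 249 with replicate 2 alone. It lay on 45.4% of the 24281 with no MEIS2 peak. MEIS2 replicate 1 reached 33.2% of TCF4 peaks on HAND2 and 4.25% of those off it, and replicate 2 reached 7.37% and 0.209%.

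TCF4 peaks with MEIS2 replicate 1 alone were the widest, and those with replicate 2 alone the narrowest. The median width was 1316 bp with replicate 1 alone, 811 bp with both libraries, 592 bp with replicate 2 alone and 791 bp with no MEIS2 peak. The median TCF4 pile-up was 141, 67, 41 and 53 in that order, and the median fold, the authors' ratio of summit pile-up to background, was 8.86, 8.17, 5.38 and 4.51. A wider peak has more room to be overlapped, and the part of width in the shares was not tested.

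Shared sites lay at gene starts more often than the other MEIS2 peaks did. The summit lay within 1 kb of an annotated start of a protein-coding gene for 23.8% of the replicate 1 peaks that overlapped TCF4, and for 3.68% of those that did not. Start sites were known for 79.2% of these genes. Outside HAND2 the share was 49.5% (321 of 648), against 20.9% of those on HAND2 as well. In replicate 2 it was 7.76% with TCF4 and 1.35% without.

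The TCF4 share was high at starts in replicate 1 whether or not HAND2 was there. It was 94.7% at starts on HAND2 and 86.3% at starts off HAND2. Away from starts it was 64.5% on HAND2 and 35.4% off it. In replicate 2 it was 51.4% at starts on HAND2 (91 of 177 peaks), 6.67% at starts off HAND2 (6 of 90), 23.8% away from starts on HAND2 and 0.293% away from starts off HAND2 (26 of 8860). Among TCF4 peaks themselves 26.2% lay at a start. That share was 27.1% with MEIS2 replicate 1 alone and 26.9% with no MEIS2, but 8.52% with both MEIS2 libraries.

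The overlap moved with the IgG background. At MEIS2 replicate 1 summits at the lowest background, 14.0% overlapped TCF4. Above it, the share was 46.4% up to 10 IgG fragments, 91.5% from 10 to 30 fragments and 94.6% from 30 on. In replicate 2 the same classes gave 1.80%, 13.1%, 74.2% and 33.0%, the last from 112 peaks. Off HAND2, replicate 1 rose from 4.39% in the lowest class to 96.1% in the highest. Off HAND2, replicate 2 had 1 of 6391 peaks with TCF4 in the lowest class and 0 of 33 in the highest, where counting error allows a share of up to 10.6%. The part of the IgG signal in the overlap was not tested. Without peaks of 30 or more IgG fragments in either list the replicate 1 share was 59.2% and the replicate 2 share 8.58%.

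**Figure D2:**
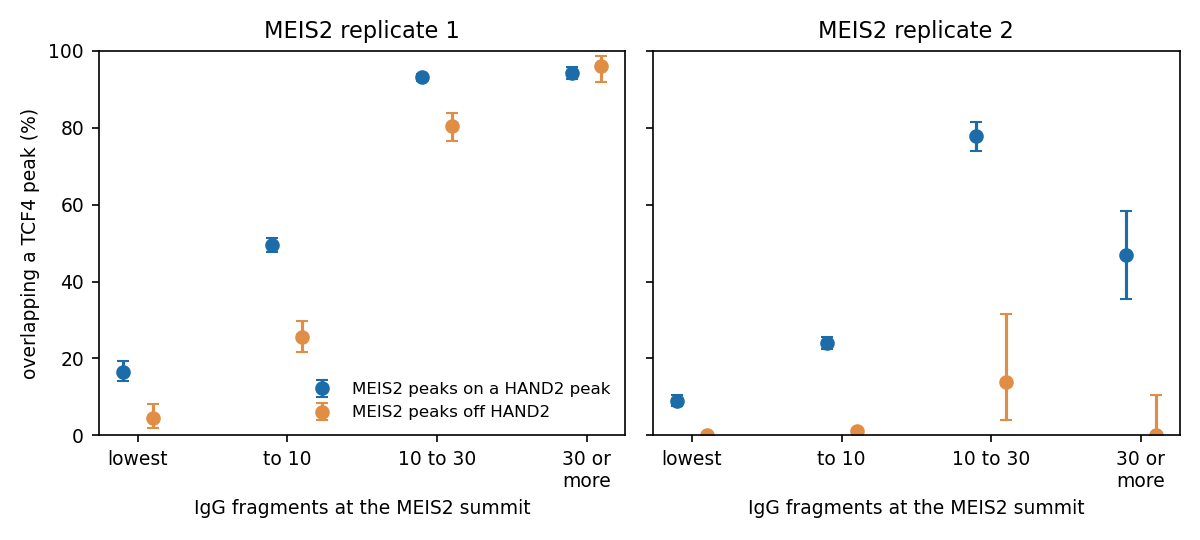
Share of MEIS2 peaks that overlapped TCF4 (vertical axis, percent) by the local background at the MEIS2 summit (horizontal axis, IgG fragments), for peaks on and off HAND2, with exact 95% binomial intervals as bars. In replicate 1 the share on HAND2 goes from 16.5% to 94.3%, and in replicate 2 it is highest from 10 to 30 fragments (77.8%).

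Backgrounds were compared between the lists where the summits lay nearly on the same base. Where MEIS2 and TCF4 summits lay within 5 bp, the median difference in IgG fragments was 0.115 for the 592 such pairs of replicate 1 and 0.0384 for the 44 of replicate 2. It was within 1 fragment at 65.0% and 88.6% of these pairs, and the largest differences were 94.3 and 63.1 fragments.

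Chromosomes differed in the TCF4 share of MEIS2 peaks. In replicate 1 it ran from 35 of 70 peaks on chromosome 13 to 89.5% on chromosome 19 (350 of 391). Replicate 2 ran from 4.83% on chromosome 4 (36 of 745) to 35.9% on chromosome 19 (28 of 78). Chromosome 19, the densest in genes, was thus the highest in both libraries. On chromosome 21, 38.7% of the 75 replicate 1 peaks that overlapped TCF4 lay outside HAND2, the highest such share of any chromosome. Whether the reads of these peaks could be placed uniquely was not tested.

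The second question was how close the summits lie where the peaks overlap. In MEIS2 replicate 1 the median distance to the nearest TCF4 summit was 109 bp (95% interval 105 to 115 bp). The summits lay within 50 bp at 30.8% of the sites, within 100 bp at 47.6% and within 200 bp at 66.1%. They lay over 500 bp apart at 13.7%, and 189 pairs shared the base. In replicate 2 the median was 231.5 bp (213 to 250 bp), with 13.3%, 23.6% and 44.6% within the same limits, 21.0% over 500 bp apart and 11 pairs on the same base.

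In replicate 1 the distance differed little on and off HAND2. The median was 109 bp on HAND2 and 116.5 bp off it, and 112 bp at starts against 109 bp elsewhere. In replicate 2 it was 228 bp on HAND2 and 311 bp off it, the latter from 32 pairs with an interval of 181 to 549 bp, and 336 bp at starts against 224 bp elsewhere. Deep MEIS2 peaks in replicate 1 lay closer, at 86 bp for a pile-up of 30 or more and 192 bp below 15. In replicate 2 these medians were 211 bp (186 to 246) and 235 bp (194 to 269). By −log10 p the libraries went opposite ways. The top 25% and lowest 25% of the list had 89 and 146 bp in replicate 1. In replicate 2 they had 270 bp (232 to 311) and 199 bp (167 to 229).

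**Figure D3:**
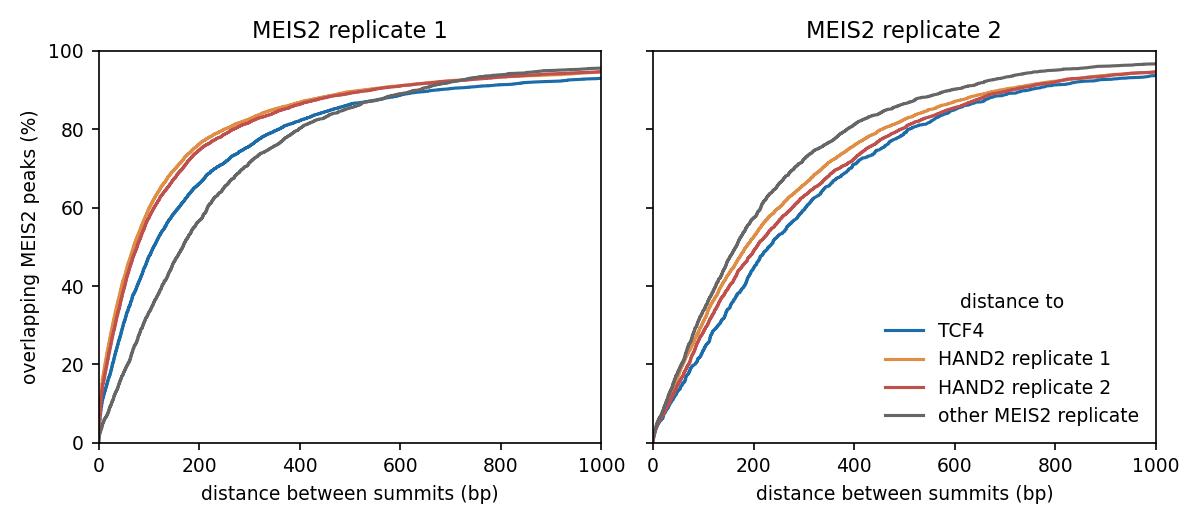
Cumulative share of overlapping MEIS2 peaks (vertical axis, percent) by the distance from the MEIS2 summit to the nearest summit of TCF4, of each HAND2 list and of the other MEIS2 library (horizontal axis, bp, drawn to 1000). In replicate 1 the HAND2 curves (medians 70 and 76 bp) rise before TCF4 (109 bp), and in replicate 2 the TCF4 curve is the last to rise (231.5 bp).

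MEIS2 summits lay nearer to HAND2 than to TCF4. From replicate 1 the median distance was 70 and 76 bp to HAND2 replicates 1 and 2 and 168 bp to MEIS2 replicate 2. From replicate 2 it was 186 and 206.5 bp to the HAND2 lists and 165 bp to MEIS2 replicate 1. For scale, the summits of the HAND2 replicates lay 49 bp apart and those of TCF4 and HAND2 96 and 82 bp. At the 5307 replicate 1 peaks with both TCF4 and HAND2 replicate 1, the HAND2 summit was the nearer at 54.6% and the TCF4 summit at 40.6%. At the 1196 such peaks of replicate 2 it was 58.3% and 38.0%. With HAND2 replicate 2 in its place the shares were 53.2% and 41.6% for MEIS2 replicate 1 and 54.8% and 41.7% for MEIS2 replicate 2.

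The third question was whether strong MEIS2 peaks meet strong TCF4 peaks. Folds are the authors' and are ranked here within each list. Where a MEIS2 peak overlapped several TCF4 peaks, the TCF4 peak of highest fold was taken as its partner for these ranks. At shared sites the TCF4 partner was a strong TCF4 peak more often than not in replicate 1. It stood in the top 25% of the TCF4 list by fold for 56.9% (55.7 to 58.1%) of the replicate 1 peaks and 46.7% (43.9 to 49.5%) of the replicate 2 peaks. Outside HAND2 these shares were 27.9% and 18.8% (6 of 32). For the MEIS2 peaks at shared sites the place in their own list depended on the measure: 23.4% and 22.4% stood in the top 25% of replicates 1 and 2 by fold, and 29.3% and 34.3% by −log10 p.

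Across the shared sites the ranks of fold hardly followed each other. Spearman's rho between MEIS2 and TCF4 fold was 0.12 over 6387 sites of replicate 1 and -0.03 over 1250 of replicate 2. By −log10 p it was 0.16 and -0.00. The sites of a list share libraries, background and the inferred IgG control and are no independent samples, so no p is given. MEIS2 fold fell as IgG fragments rose, with rho -0.46 and -0.63. Both folds stood in the top 10% of their lists at 247 sites of replicate 1 and at 27 of replicate 2. At the 1021 TCF4 peaks with both MEIS2 libraries the folds of the MEIS2 libraries gave a rho of 0.36.

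Strong TCF4 peaks were reached by MEIS2 far more often than weak ones. Each list was cut by rank into 10 classes of equal size, class 1 being the strongest. MEIS2 replicate 1 lay on 58.5% of the TCF4 peaks in class 1 by fold and on 4.36% of those in class 10. Replicate 2 lay on 9.71% and 0.749%. HAND2 lay on 91.5% and 22.6% of the same classes. Ranked by −log10 p the replicate 1 shares were 59.9% and 5.34%, and those of replicate 2 were 6.71% and 2.67%.

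**Figure D4:**
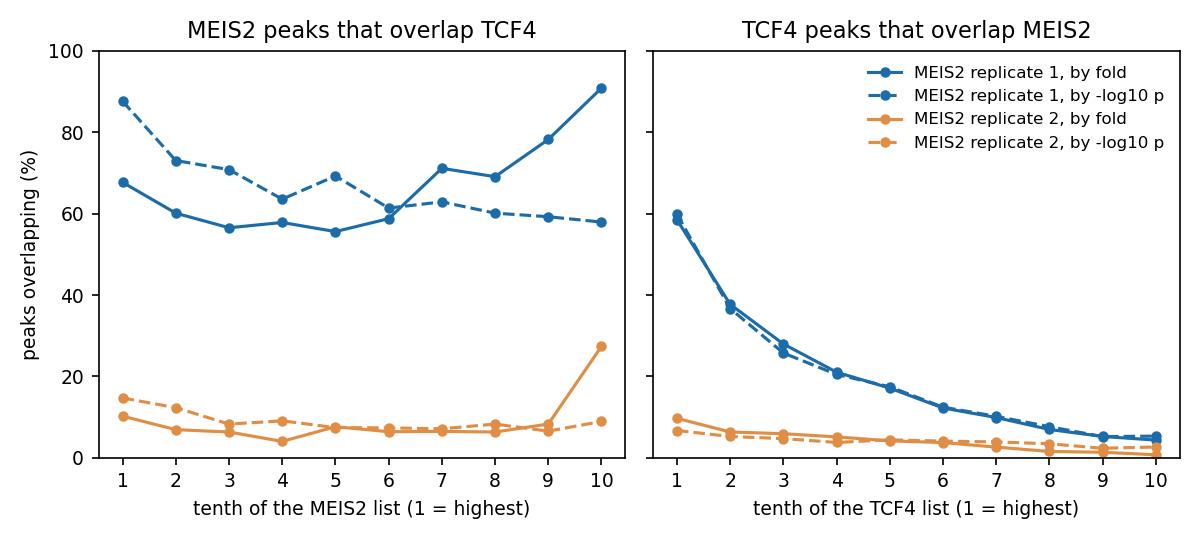
Left, share of MEIS2 peaks that overlapped TCF4, and right, share of TCF4 peaks that overlapped MEIS2 (vertical axes, percent), by class of rank (horizontal axes, each class a 10% share of the list, 1 is the highest), ranked by fold (solid) or −log10 p (dashed). The TCF4 curves by fold fall from class 1 to class 10, and the MEIS2 curves by fold end higher than they begin (67.7 to 90.8% in replicate 1, 10.2 to 27.4% in replicate 2).

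The order by MEIS2 strength depended on the measure. By fold, replicate 1 overlapped TCF4 at 67.7% of its peaks in class 1, 55.6% in class 5 and 90.8% in class 10. Class 10 had a median of 29.99 IgG fragments and 41.4% of its summits at starts, against 5.19 fragments and 9.07% in class 1. By −log10 p the share was 87.6% in class 1 and 57.9% in class 10. Replicate 2 had 10.2% in class 1, 4.04% in class 4 and 27.4% in class 10 by fold, and 14.7% and 8.93% in classes 1 and 10 by −log10 p.

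Pairs were ordered by the worse of the percentiles of the MEIS2 and the TCF4 fold, with no lower limit set on either. At gene ends in replicate 1 the leading pairs lay at MACO1 (macoilin), SAMD11, IFT70B (intraflagellar transport), HDAC4 (a class IIa histone deacetylase), TMEM143 and SLC25A42 (a mitochondrial carrier of coenzyme A). The SAMD11 and TMEM143 sites lay at the 3′ end, 19318 and 31200 bp from a start of the gene. At MACO1, chr1:25430014-25431318, the MEIS2 fold was 17.8 and the TCF4 fold 22.7, with summits 311 bp apart. At IFT70B, chr2:177551819-177553363, the folds were 17.9 and 20.2 and the summits lay 6 bp apart. All 6 also had a HAND2 peak, and at SLC25A42 only in replicate 2, with a fold of 1.78, where the background at the MEIS2 summit was 68.0 IgG fragments.

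Away from gene ends the strongest pair of replicate 1 lay inside CLPB (a mitochondrial chaperone), chr11:72357495-72359342, 73438 bp from its nearest end. MEIS2 had a fold of 43.3 there (rank 20, pile-up 171), TCF4 79.4 (rank 13) and MEIS2 replicate 2 12.5, with MEIS2 and TCF4 summits 30 bp apart. The others lay 19115 bp from FBXO8, inside LOC128125817, 140742 bp from BNC2 (a zinc finger factor), 105104 bp from TTC8 (a subunit of the BBSome of cilia) and inside DNAH17 (an axonemal dynein). At the BNC2 site the folds were 31.2 and 72.5 and the summits lay 2 bp apart. All 6 had peaks in both HAND2 lists and in MEIS2 replicate 2. These sites lie inside or near the named genes, and no link to their expression was measured.

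Outside HAND2 the strongest replicate 1 pairs lay at PHF20, LRP5, DSCAM, RALGPS1, MAML1 and 387552 bp from LOC102723475. The last site lay at chr21:8216902-8217556, and whether its reads could be placed uniquely was not tested. PHF20 is a chromatin reader, LRP5 a Wnt coreceptor and DSCAM a neuronal adhesion molecule. At PHF20, chr20:35771767-35772847, the summit lay 114 bp from the start, MEIS2 had a fold of 17.4 (15.2 to 19.8, exact 95% Poisson interval of the pile-up) and TCF4 16.6 (15.3 to 18.0). At RALGPS1, whose promoter is printed above, MEIS2 had 12.5 (10.2 to 15.1) and TCF4 15.4 (13.7 to 17.3), 147 bp apart. At MAML1 MEIS2 had 14.6 (11.8 to 17.8) and TCF4 12.7 (11.1 to 14.4), with summits 5 bp apart. Of the 6, only the DSCAM site, 165814 bp inside the gene, had a peak in MEIS2 replicate 2, with a fold of 4.83.

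The leading pairs of replicate 2 at gene ends lay at NCAPD2 (a condensin subunit), H2BC14, POPDC2, REXO2, TMT1A and NBN (a subunit of the MRN repair complex). The NCAPD2 site lay at the 3′ end, 38761 bp from the start of the gene. H2BC14 is 1 of many near-identical histone genes, so its reads may be misplaced. All 6 had peaks in both HAND2 lists and in MEIS2 replicate 1, and at POPDC2 replicate 1 had a fold of 34.8 against 11.03 in replicate 2. The MEIS2 folds of the 6 ran from 7.61 to 11.3, the TCF4 folds from 7.04 to 12.9, and the summits lay 517 to 1127 bp apart. Away from gene ends the strongest lay inside WDR25 and outside SOX6, PIK3R1, FERMT2 and TSHZ2, the nearest genes. The distances to these were 124225, 253211, 21954 and 170656 bp. The FERMT2 peak overlapped a pair of TCF4 peaks, and both pairs stood among the 6.

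SOX6 and PIK3R1 led the sites with both MEIS2 libraries. SOX6 encodes a transcription factor and PIK3R1 the regulatory subunit of PI3 kinase. At the SOX6 site, chr11:15843092-15843876, 122935 bp outside the gene, MEIS2 had 18.3 in replicate 1 and 25.5 in replicate 2, and TCF4 65.5. At the PIK3R1 site, chr5:68554786-68555562, 253348 bp from the gene, the folds were 27.7, 18.1 and 21.8, and the replicate 1 and TCF4 summits lay 7 bp apart. FERMT2 (kindlin-2), TSHZ2 (a zinc finger factor), BCAS3 and SLC22A16 completed the 6. TCF4 fold ranged from 18.5 at BCAS3 to 65.5, and all 6 sites had peaks in both HAND2 lists.

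Outside HAND2 the 32 shared peaks of replicate 2 had a median MEIS2 fold of 4.90, against 5.67 for those on HAND2. Of the 32, 12.5% stood in the top 25% of the replicate 2 list by fold. The strongest pair lay 2518 bp from IRF2BP2, with folds of 9.53 and 9.91. The next lay 17355 bp from IL6ST (the gp130 cytokine receptor subunit), 50969 bp from NEFL (neurofilament light chain) and 28877 bp from OGFRL1. Others lay inside SMPDL3A and TFAP2B (a factor of the sympathetic lineage). At IL6ST MEIS2 had 24.9 in replicate 2 and 10.9 in replicate 1, and TCF4 6.46 with its summit 2170 bp away. The TFAP2B peak lay 5124 bp from the start, inside the gene, with 5.41 in replicate 2, 7.54 in replicate 1 and 4.78 for TCF4. Not all of these pairs were strong. The worse percentile was 21.1% at IRF2BP2 but 53.0% at NEFL and 69.8% at TFAP2B.

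Genes were then counted where a shared MEIS2 and TCF4 peak lay within 1 kb of either end. Of 19970 protein-coding genes, 2124 (10.6%) had such a site with replicate 1, 143 (0.716%) with replicate 2 and 112 (0.561%) with both. Without a HAND2 peak on the MEIS2 peak it was 423 genes (2.12%) and 12 genes (0.0601%). TCF4 itself had a peak at an end of 53.9% of genes, MEIS2 replicate 1 at 11.5% and replicate 2 at 2.18%. Of the genes with TCF4, 19.7% shared it with replicate 1 and 1.33% with replicate 2.

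**Figure D5:**
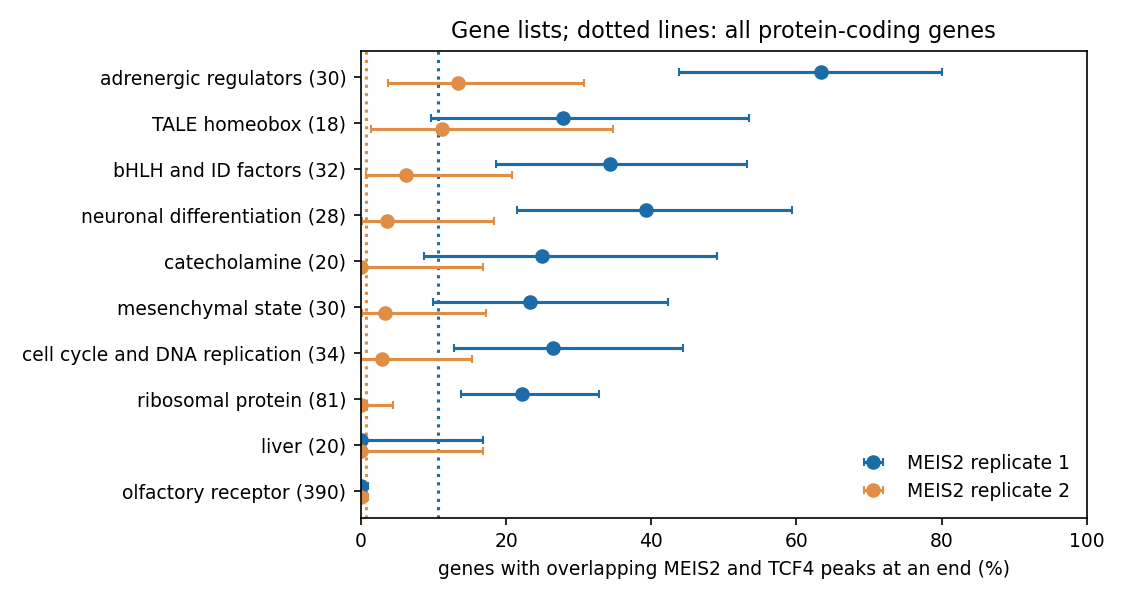
Share of the genes of each list (horizontal axis, percent; number of genes in brackets) with overlapping MEIS2 and TCF4 peaks at an end, with exact 95% binomial intervals; dotted lines give the share of all protein-coding genes. Adrenergic regulators stand highest with both libraries (63.3% and 13.3%), and olfactory receptor and liver genes are at 0.

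As a share of all listed genes, adrenergic regulators shared most with both libraries. Of 30 such genes, 19 had a shared site with replicate 1 and 4 with replicate 2, and 25 had TCF4. The strongest by the worse rank were PHOX2A, HAND2, MEIS2 and TCF3. PHOX2A, a homeodomain factor of sympathetic neurons, had a MEIS2 fold of 18.1 and a TCF4 fold of 16.7. This site lay at the 3′ end of the gene, 4857 bp from its start. The MEIS2 gene itself had 17.8 (14.4 to 21.8) and 9.85 (8.44 to 11.4) at its 5′ end.

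TCF3 was the strongest MEIS2 site of the adrenergic list. The replicate 1 peak, chr19:1650853-1653483, had a fold of 34.8 (31.6 to 38.2), a pile-up of 430 and rank 37, and TCF4 had 8.53 (7.64 to 9.49), with summits 13 bp apart. No HAND2 peak and no MEIS2 replicate 2 peak overlapped it, and the background at its MEIS2 summit was 46.0 IgG fragments. At the HAND2 gene MEIS2 had 20.1 (15.2 to 26.1) in replicate 1 and 3.74 (2.02 to 6.45) in replicate 2, and TCF4 12.8 (10.1 to 16.1). HAND2 protein at its own gene had 3.85 and 5.01.

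MEIS1, ISL1, HAND2 and MEIS2 made up the 4 adrenergic genes with both MEIS2 libraries. At MEIS1, the paralog of MEIS2, the folds were 6.16 in replicate 1, 5.11 in replicate 2 and 6.01 for TCF4. At ISL1 they were 6.18, 4.23 and 6.24, and the replicate 1 and TCF4 summits shared the base. The replicate 2 peak at ISL1 did not itself touch a HAND2 peak, while the replicate 1 peak there did, with HAND2 folds of 3.19 and 3.30. At MEIS2 the leading shared pairs of the libraries lay at different ends of the gene. The replicate 2 site, chr15:36887766-36888563, had a MEIS2 fold of 2.97, and a replicate 1 peak with a fold of 6.71 overlapped it.

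Of the 18 TALE homeobox genes 5 shared replicate 1 and TCF4, and 2 shared replicate 2. PBX3, a partner of MEIS proteins, had a MEIS2 fold of 6.75 against 48.5 for TCF4, with summits 7 bp apart. PKNOX1, another MEIS relative, had 7.73 and 7.85 and no HAND2 peak, with a background of 34.1 IgG fragments. IRX5 had 4.05 and 8.23. Of the 32 bHLH and ID genes, 11 shared replicate 1 and 2 shared replicate 2. ID2 had 10.3 (7.97 to 13.2) and TCF4 11.5 (9.98 to 13.2), 7 bp apart, and 4.43 in replicate 2. HES1, a Notch target, had 8.34 and 38.8. TCF3, TWIST1 and ID4 were among those that shared without HAND2, at 46.0, 4.19 and 24.0 IgG fragments.

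Of the neuronal differentiation list 11 of 28 shared replicate 1 and 1 shared replicate 2, with no site outside HAND2. SNAP25, a synaptic fusion protein, had a MEIS2 fold of 9.70 and a TCF4 fold of 15.2. STMN2, a tubulin-binding protein of growing axons, had 6.64 and 9.67. SYT1, the synaptic calcium sensor, had 4.60 and 4.49 with replicate 1 at its start-side site, and 6.66 in replicate 2 at the other end of the gene. PRPH, the intermediate filament peripherin, had 4.45 and 9.39. Of the catecholamine list 5 of 20 shared replicate 1 and 0 shared replicate 2. TCF4 was much the stronger in rank at CYB561 (6.32 and 40.8), DBH (4.65 and 34.0) and the noradrenaline transporter SLC6A2 (4.40 and 35.4). TH, the rate-limiting enzyme of the pathway, had 5.36 and 11.2, 7907 bp apart within a TCF4 peak of chr11:2162073-2173733. The MEIS2 summit lay 169 bp from the end of the gene at 2163929, and the TCF4 summit lay near the opposite end at 2171815.

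The mesenchymal list, genes of the other state of neuroblastoma cells, shared 7 of 30 with replicate 1 and 1 (VIM) with replicate 2. FOSL2, an AP-1 subunit, had 6.32 and 9.94. ID1, an inhibitor of E proteins, had 6.12 and 12.5, and the bHLH factor TWIST1 5.89 and 6.02. SNAI2, a repressor of the epithelial state, had 5.88 and 29.0. VIM, the intermediate filament vimentin, had 4.64 in replicate 1, 4.88 in replicate 2 and 9.15 for TCF4. Of the cell cycle list 9 of 34 shared replicate 1, among them ORC6 (7.60 and 11.5, 2 bp apart), MCM7 (5.54 and 12.7), E2F1 (5.46 and 8.01) and CDK2 (5.38 and 6.90), and CDC6 shared replicate 2 alone (4.46 and 6.94). The CDC6 site lay at the 3′ end, 17295 bp from the start of the gene. CDK2 and CCNE2 had no HAND2 peak, with backgrounds of 77.0 and 32.2 IgG fragments. The CDK2 summit lay outside the gene, 1095 bp from its end at 55972789, and 65 bp from another gene. Of 81 ribosomal protein genes 18 shared replicate 1 and 0 shared replicate 2, with RPL12 first at 13.8 and 9.78. RPL10 had 8.06 and 33.3, RPL39 8.04 and 20.3 and RPL23A 7.19 and 6.70. Of 20 liver and 390 olfactory receptor genes 0 shared in either library, which allows a share of up to 16.8% and 0.941%, and TCF4 lay at 4 and 2 of them. Set against the genes with TCF4, the shares with replicate 1 were 76.0% for adrenergic regulators, 55.0% for bHLH and ID, 7 of 14 for mesenchymal, 45.8% for neuronal, 41.7% for TALE homeobox, 33.3% for catecholamine, 32.1% for ribosomal and 9 of 30 for cell cycle genes, where all genes gave 19.7%. With replicate 2 they were 16.7% for TALE homeobox (2 of 12), 16.0% for adrenergic regulators (4 of 25), 2 of 20 for bHLH and ID, 7.14% for mesenchymal, 4.17% for neuronal, 3.33% for cell cycle and 0 for the catecholamine and ribosomal lists, where all genes gave 1.33%. The lists were described and not tested, and some genes stand in several of them.

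At MYCN, whose copies are many in this line, the background was extreme. The replicate 1 peak, chr2:15939408-15944008, stood on 2640 IgG fragments and had a fold of 2.94 (2.81 to 3.08), with TCF4 at 4.13 (4.04 to 4.23). Replicate 2 had no peak in the gene. Within 1000000 bp of it, 15 of 71 replicate 1 peaks and 7 of 81 replicate 2 peaks overlapped TCF4, and all of these met HAND2. The TCF4 gene, chr18:55222185-55635957, had no shared site at an end. Inside it 4 of 6 replicate 1 peaks and 1 of 10 replicate 2 peaks overlapped TCF4.

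Promoter letters were counted in 300-base windows, on both strands. Of all 22131 windows 65.1% held CANNTG and 14.8% TGACAG. Windows wholly under TCF4 and MEIS2 replicate 1 (894 windows of 784 genes) held CANNTG at 51.9% (48.6 to 55.2%), and those under TCF4 with no MEIS2 peak (6237) at 56.0% (54.7 to 57.2%). TGACAG stood in 14.5% and 10.8% of them. The E-box CACCTG stood in 10.9% and 18.8%, against 19.98% of all windows, and CAGCTG in 17.1% and 17.3%. Without HAND2 CANNTG was at 45.2% of 210 windows, and with it at 53.9% of 684. Median G and C content was 67.0% with MEIS2 replicate 1, 70.3% with TCF4 and no MEIS2 peak and 62.3% in all windows, and its part in these shares was not tested. Under TCF4 and MEIS2 replicate 2 lay 18 windows, of which 14 held CANNTG. An E-box can share bases with TGACAG, and the named E-boxes count towards CANNTG too.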

How the data were processed

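The 5 peak lists come from CUT&Tag libraries of SK-N-BE(2) cells and were grouped by the antibody and replicate number in the labels. The submitters' processing notes name bcl2fastq 2.17, Bowtie2, MACS3 3.0.0a6 and the build hg38; the options are not given there. The authors called peaks per library. The deposited lists give for each peak the authors' fold enrichment, a ratio of summit pile-up to local background, which was used for ranks within a list. They also give the authors' −log10 p and −log10 q and the deposited offset of the summit, an integer position from the peak's start.

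Only chromosomes 1 to 22 and X were kept, which removed 3, 5 and 7 peaks of MEIS2 replicate 1, MEIS2 replicate 2 and TCF4. Overlap meant at least 1 bp. For summit distances the TCF4 partner was the overlapping peak with the nearest summit. For the comparison of ranks at shared sites it was the overlapping peak of highest fold. Pile-ups were recovered from the deposited fold and −log10 p within a relative tolerance of 5e-05, for 100% of peaks, after testing on simulated data. The local background follows from the pile-up and the fold. Dividing it by the scale of 1 fragment gives the IgG fragments at a summit, a level and not a direct count. This takes the IgG library as the control of every list, which was inferred. The scale, a library's depth relative to IgG, was 0.248 and 0.368 for MEIS2 and 0.784 for TCF4. Shares have exact binomial and folds exact Poisson intervals at 95%, from SciPy 1.17.1 under Python 3.11.15 (pandas 2.3.3, matplotlib 3.10.9). These cover counting error only. Genes and promoters came from RefSeq GRCh38.p14, the assembly release of hg38. Exons and introns were not used here.

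The text names the 6 pairs with the best worse percentile of MEIS2 and TCF4 fold at gene ends, elsewhere and outside HAND2 for each MEIS2 library, and with both libraries, and from each gene list the first 4 members by the same order. Other members named in the text were chosen after their values were seen. The members and lists were chosen with earlier results of these data known.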

Additional observations from a re-analysis of the deposited data

How the results depend on the processing

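Of the values recomputed under other settings, 26 stayed within their interval and 38 moved out of it, and none has a second TCF4 library to set it against. With 500 bp in place of 1 kb around a gene end, 1906 and 113 genes shared TCF4 with replicates 1 and 2, against 2124 and 143. With the 5000 peaks of highest −log10 p per list the TCF4 share of MEIS2 peaks was 35.4% (replicate 1) and 2.82% (replicate 2). The MEIS2 share of TCF4 peaks was then 34.3% and 2.86%, the part outside HAND2 32.5% and 5.67%, the replicate 1 summit distance 89 bp and the share of TCF4 partners in the top 25% 41.1% and 49.6%. These lists hold fewer TCF4 and HAND2 peaks by construction. With −log10 q of 5 or more the MEIS2 share of TCF4 peaks was 18.0% and 3.28%, the replicate 1 part outside HAND2 11.2% and its distance 104 bp. With an overlap of 0.5 of the shorter peak the TCF4 shares were 64.6% and 7.23%, the MEIS2 shares 19.5% and 3.28%, the replicate 2 distance 192 bp and its top 25% share 50.8%. Leaving out peaks at 30 IgG fragments or above, the replicate 1 TCF4 share was 59.2% and the MEIS2 shares were 18.0% and 4.48%. Leaving out each HAND2 library in turn gave 11.8 to 16.9% outside HAND2 for replicate 1 and 4.32 to 5.36% for replicate 2. With no HAND2 summit within 1 kb it was 11.8% and 4.40%. The cause of these shifts was not tested. The last 4 settings were chosen after seeing the data. With HAND2 peaks found in both HAND2 lists only, 18.1% and 6.16% lay outside HAND2. Away from gene starts the TCF4 shares were 60.1% and 8.34%, the replicate 2 share of TCF4 peaks 5.09%, and for replicate 1 the part outside HAND2 6.54% and the top 25% share 60.03%. With TCF4 ranked by −log10 p the replicate 2 top 25% share was 35.4%, and with MEIS2 ranked so the MEIS2 peaks in the top 25% of their own lists were 29.3% and 34.3%. No paired analysis was possible because no test was made across samples and TCF4 has 1 library. The median summit pile-up was 22 and 13 in the MEIS2 libraries; at pile-ups of 30 or more the median summit distance was 86 and 211 bp, and below 15 it was 192 and 235 bp.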
